A study of Mus musculus with 13 samples.

Results

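Committed oligodendrocyte precursors are the short-lived cells between dividing oligodendrocyte precursors and myelinating oligodendrocytes. Here they were sought by 3 of their marker genes in single-nucleus RNA profiles of the mouse hippocampus. A nucleus was selected where transcripts of at least 2 of Bmp4, Enpp6 and Gpr17 were detected and their unique molecular identifiers (UMIs, the count of captured transcript molecules) summed to at least 8 per 10000 UMIs of that nucleus. Of 105427 retained nuclei, 90 met this rule (0.0854%) and are called members below. They came from 13 of 13 libraries, with 2 to 13 members in each.

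The libraries were made from sorted nuclei of whole frozen hippocampus of female hybrid mice, whose strain is written C3B6F1 in the series text and C3HB6F1 in the sample labels. Young mice fed ad libitum were 5 months old (n = 3, numbered 1, 2 and 3), and old mice fed ad libitum were 24 months old (n = 3, numbered 1, 2 and 4). Old mice under acute restriction were also 24 months old and had been on dietary restriction since 20 months (n = 3), and those under long-term restriction were of the same age and had been restricted since 5 months (n = 4). The labels number the samples of a group without stating that each was a separate mouse, so the p-values below measure the spread between these libraries, which may be partly technical.

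Oligodendrocyte precursors carry the growth factor receptor Pdgfra and divide throughout life. A precursor that commits to differentiate loses Pdgfra, leaves the cell cycle and switches on Gpr17, a G protein-coupled receptor, then Enpp6, a choline phosphodiesterase used as an early sign of oligodendrocyte formation, while myelin genes start to rise. Bmp4, a secreted ligand of the bone morphogenetic protein family, is made by the same committed cells. In the adult brain such cells are few, and their number is used as a sign of how many new oligodendrocytes are being made.

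Libraries held 38546292 to 80538090 UMIs and a median of 3801 to 11375 UMIs per retained nucleus. The 90 members held 401242 UMIs in all, with a median of 4100.5 per nucleus (1052 to 12838) and a median of 1892 genes. None of them lay among the top 5% of nuclei by UMIs in its library, and of 1358 barcodes that occurred in more than 1 library, 0 belonged to members. The 4 libraries numbered 1, 1 in each group, held fewer oligodendrocytes than the others. Numbers are those of the sample titles, and for 4 libraries (acute 2 and 3, young 2 and 3) the names of the deposited data carry another number. Nuclei meeting an oligodendrocyte rule (at least 3 of 6 oligodendrocyte genes that include Mbp and Mog, at 40 or more UMIs per 10000) made up 0.630% to 3.30% of their retained nuclei and 8.0% to 22.5% in the other 9. Members were therefore also compared with precursors, which were defined by Pdgfra and in all at least 3 of Pdgfra, Vcan, Lhfpl3, Pcdh15 and Megf11, at 20 or more UMIs per 10000 (2892 nuclei, median 3659.5 UMIs). The oligodendrocyte rule found 10462 nuclei with a median of 1918 UMIs, and nuclei that met both rules, and all members, were left out of both classes.

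The selection rested on few molecules per nucleus. All 3 genes were detected in 38 members, Bmp4 and Enpp6 in 25, Enpp6 and Gpr17 in 19, and Bmp4 and Gpr17 in 8. The members just inside the threshold had 8.09, 8.33 and 8.43 UMIs of the 3 genes per 10000, and the nuclei just outside it with 2 genes detected had 7.70, 7.67 and 7.65. A further 800 nuclei reached 8 per 10000 with 1 gene alone and were not members. In 11 members the rule was met by exactly 2 UMIs.

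Outside the members, Bmp4 was the rarest of the 3 genes. It was detected in 1.31% of precursor-rule, 0.124% of oligodendrocyte-rule and 0.147% of neuron-rule nuclei (79021 nuclei, median 7464 UMIs, a cell type that should lack it). Gpr17 was also present in precursor-rule nuclei, of which 22.8% had a UMI against 0.299% of neuron-rule nuclei. Enpp6 was also present in oligodendrocyte-rule nuclei, of which 26.2% had a UMI against 1.01% of neuron-rule nuclei. Bmp4 lies on chromosome 14 from 46383520 to 46390669 (minus strand) and Enpp6 on chromosome 8 from 46986887 to 47096762 (plus strand), in build GRCm38.

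Lineage genes that the rule did not use were compared between members and the 2 classes. Since the nuclei were chosen by their expression, levels in members against these classes are descriptions and carry no test. They are UMIs summed over all members, all precursor-rule nuclei or all oligodendrocyte-rule nuclei, as CPM (counts per 1000000 UMIs of the same nuclei), and the genes that define a class are high in it by choice. Of 20 genes of committed precursors and newly formed oligodendrocytes, 17 were higher in members than in both classes, and as a list they held 21812 CPM in members, 2041 in precursor-rule and 1459 in oligodendrocyte-rule nuclei.

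Bcas1, a marker of cells that are starting to myelinate, was at 5388 CPM in members, 376 in precursor-rule and 646 in oligodendrocyte-rule nuclei. Fyn, a Src family kinase that drives process outgrowth and local Mbp translation, was at 4464, 289 and 110 CPM in the same order. Tcf7l2, the Wnt pathway transcription factor of differentiating oligodendrocytes, was at 1338, 153 and 94.8 CPM, and the deacetylase gene Sirt2 was at 1174, 122 and 119. The members thus lay above both classes, by 8.34-fold or more for Bcas1 and 8.75-fold or more for Tcf7l2.

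Itpr2, an intracellular calcium channel, was at 1092 CPM in members against 394 and 44.4, and Neu4, a sialidase, at 424 against 154 and 2.61. Both were thus nearer to precursor-rule nuclei than Bcas1 or Fyn were. The transcription factors Nkx2-2 (155, 35.7 and 24.6 CPM) and Zfp488 (99.7, 19.2 and 5.79 CPM) showed the same order. Each of the 8 genes named from this list was above precursor-rule nuclei in 11 to 13 of 13 libraries and above oligodendrocyte-rule nuclei in 12 or 13. Rras2 and Fam107b were not above both, and Casr had 0 UMIs in members. These 3 were named after their values were seen.

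**Figure D1:**
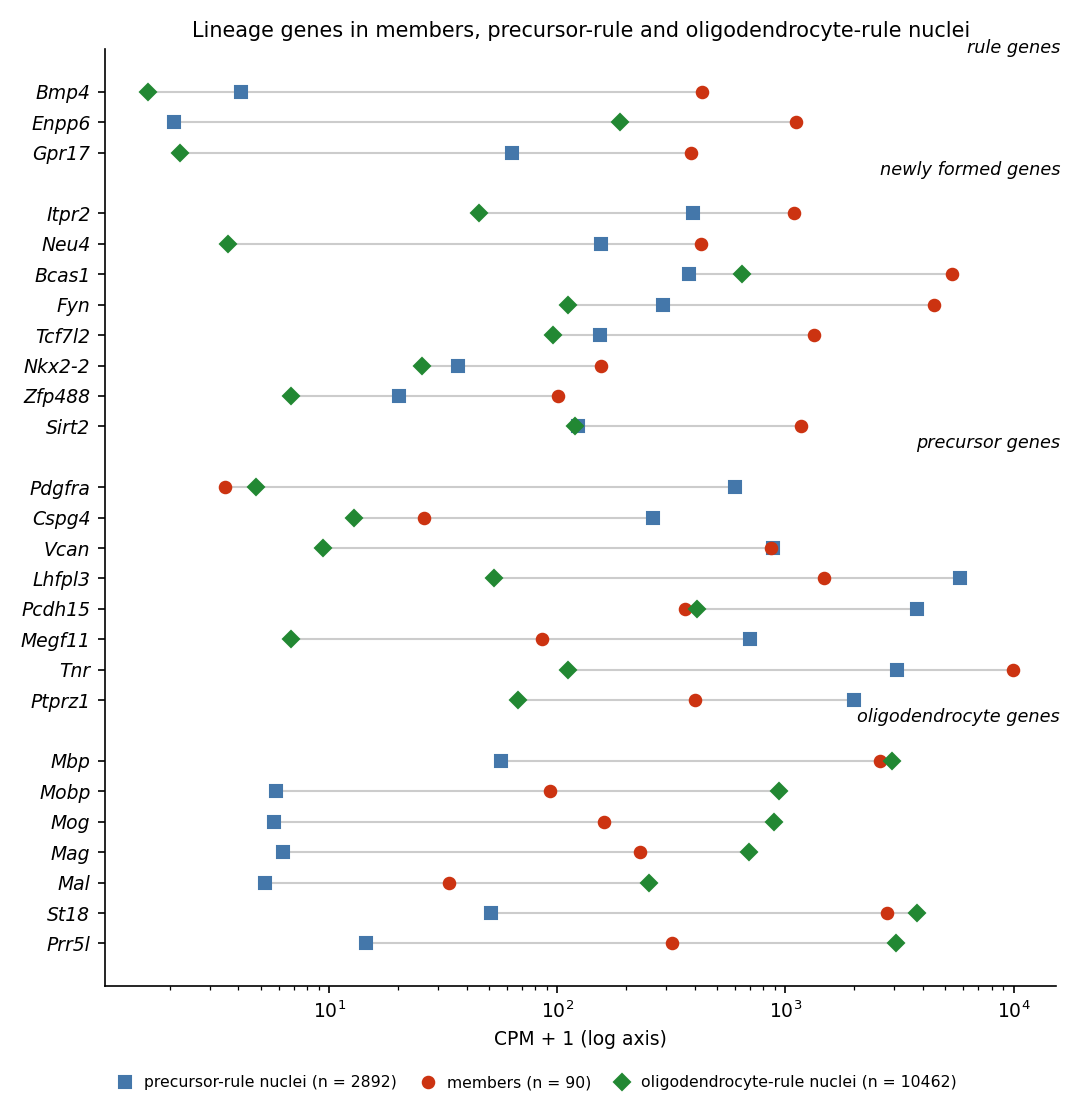
CPM plus 1 (log axis) of the 3 rule genes and of up to 8 genes from each of 3 lists, in precursor-rule nuclei (squares), members (circles) and oligodendrocyte-rule nuclei (diamonds), pooled over 13 libraries. Members lie to the right of both classes for Bcas1 (5388) and Fyn (4464), far left of precursor-rule nuclei for Pdgfra, and close to oligodendrocyte-rule nuclei for Mbp (2602).

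Of the 14 precursor genes, 12 were lower in members than in precursor-rule nuclei, to different extents. Pdgfra had 1 UMI in all members, at 601 CPM in precursor-rule nuclei. Cspg4, the NG2 proteoglycan, was at 24.9 CPM in members and 262 in precursor-rule nuclei, Pcdh15 at 361 and 3785, Megf11 at 84.7 and 694, and Ptprz1, a receptor phosphatase, at 401 and 1993. Each of these 5 was lower in members in 13 of 13 libraries. Lhfpl3 was at 1468 CPM against 5794.

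The extracellular matrix genes Vcan and Tnr of this list differed from these, while the proteoglycan gene Cspg4 (above) did not. Vcan, the proteoglycan versican, was at 860 CPM in members and 882 in precursor-rule nuclei. Of the 12 myelin-rich members described further on, 0 had a UMI of Vcan, which lowers the value in members. Tnr, the matrix glycoprotein tenascin-R, was 3.22-fold higher in members (9942 against 3083 CPM) and higher in 12 of 13 libraries. Of the 14 precursor genes, Tnr and Sox6 were the 2 that were higher in members. Sox6, a transcription factor named here after its values were seen, was at 3240 against 1578 CPM.

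Myelin genes were on in members, but unequally. Mbp, myelin basic protein, was at 2602 CPM in members and 2929 in oligodendrocyte-rule nuclei, and St18, a transcription factor, at 2779 and 3775. The other oligodendrocyte genes named here stood well below. Mog was at 160 CPM against 890, Mag at 229 against 692, Mobp at 92.2 against 938, Mal at 32.4 against 252 and Prr5l at 317 against 3047. Mobp and Mog were lower in members in 13 of 13 libraries. These levels include 12 members, described further on, that were rich in myelin genes, and the levels without them are given there. Of the 19 oligodendrocyte genes, 18 lay above precursor-rule and below oligodendrocyte-rule nuclei, and Klk6 had 0 UMIs in members.

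Transcription factors of the lineage lay in different positions. Sox10, which holds the lineage identity, was at 431 CPM in members, 228 in precursor-rule and 269 in oligodendrocyte-rule nuclei. Olig1 in members lay below precursor-rule and above oligodendrocyte-rule nuclei. Summed, Sox10, Olig1 and Olig2 held 633 CPM in members, 454 in precursor-rule and 339 in oligodendrocyte-rule nuclei. Olig2 was at 120, 96.5 and 18.9 CPM, Sox8 at 224, 81.7 and 75.0, and Myrf, the factor that starts myelin gene transcription, at 125, 10.3 and 160. Of 16 differentiation transcription factors, 7 were above both classes and 6 lay between them. Sox17 had 0 UMIs in members.

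Signalling genes were less abundant. Of 19 genes of bone morphogenetic protein signalling, whose ligand Bmp4 the members were chosen for, Bmpr1b, Smad1, Smad4 and Smad5 were above both classes. The receptors Bmpr1a (84.7 CPM), Bmpr2 (82.2) and Acvr1 (69.8) were below both classes (126 and 108, 126 and 100, and 98.2 and 74.2). The signal transducer Smad1 was at 120 CPM in members against 59.2 and 72.6. Smad6, Id1, Id3, Nog, Grem1 and Bambi had 0 UMIs in members, which allows up to 7.48 CPM (3 UMIs). Here and in the next 2 paragraphs, genes above both classes or at 0 were named after their values were seen.

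Among 11 genes listed under Wnt and Notch signalling, Tcf7l2 (above), Axin2 and Lrp6 were above both classes. Axin2, a Wnt target gene, was at 39.9 CPM in members against 16.9 and 6.40, from 16 UMIs. The Notch receptor Notch1 was at 9.97 CPM against 66.9 in precursor-rule nuclei, and the Notch target Hes5 and the ligand Jag1 had 0 UMIs in members. Cell cycle genes gave 26 UMIs over 16 genes in all members, with 2 of Mki67 and 0 of Top2a. They held 64.8 CPM in members, 117 in precursor-rule, 75.2 in oligodendrocyte-rule and 99.2 in neuron-rule nuclei. In members 6 of the 16 genes were above both classes and 6 had 0 UMIs.

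Genes of sterol synthesis (378.8 CPM over 17 genes in members, against 241.3 and 418.0) and of the glucocorticoid and fasting response (655 CPM over 16 genes, against 637 and 1196) lay between the 2 classes. Circadian clock genes (307 CPM over 13 genes measured, against 506 and 524) were below both. Of the 10 growth factor receptors none was above both classes, and the 2 with the most UMIs in members were Erbb4 (1872 CPM) and Fgfr2 (374 CPM).

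Markers of other cell types were low. Neuronal genes held 708 CPM over 10 genes in members against 8587 in neuron-rule nuclei, and 2 members met the neuron rule. Astrocyte genes held 194 CPM over 7 genes against 13456 in astrocyte-rule nuclei, with Gfap at 0, and microglial genes 39.9 CPM over 7 genes against 7112, with Csf1r and C1qb at 0. Endothelial, mural and fibroblast lists had 2, 1 and 2 UMIs in all members, with 4 of 5 genes at 0 in each. Of the members, 74 had a UMI of Sox10, Olig1 or Olig2. Of all 90, 70 met the oligodendrocyte rule and 0 the precursor rule.

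The 20 genes with the highest ratio of members to the higher of the 2 classes, among genes detected in at least 20% of members and in members of at least 8 libraries, included protein-coding and long noncoding genes. Frmd4a, a scaffold gene of cell polarity on chromosome 2 from 4017717 to 4614043, gave the most UMIs of these, 6079 in 64 members. It was at 15150.5 CPM in members, 507 in precursor-rule and 341 in oligodendrocyte-rule nuclei. The noncoding gene 9630013A20Rik was at 2039 CPM against 14.8 and 28.2, and 9530059O14Rik at 2682 against 87.9 and 106. Pik3r3, a regulatory subunit of phosphoinositide 3-kinase, was at 2408 CPM against 82.8 and 133, Epb41l2, a membrane skeleton protein, at 2079 against 50.3 and 138, and Ust, a sulfotransferase of matrix glycans, at 4162 against 325 and 76.4.

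Other genes of this group were Bmp4 itself, Fyn, Kif19a, Cnksr3, Tmem108, Pdcd4, Eya2, Parvb, Rnd2 and Gp1bb. Tmem108 was at 4259 CPM against 362 and 231, and Pdcd4, a translation inhibitor, at 1029 against 87.1 and 71.9. Several lie across another gene. Gm16364, also of this group, is a symbol that the files give to 2 gene IDs, both of which lie opposite Fyn. Gm13187 lies opposite Frmd4a, 9630013A20Rik opposite Pcdh17, 4930444A19Rik opposite Ankrd44, and Gp1bb overlaps Sept5 on the same strand. The use of strand in counting is not given in the sources used here, so reads of these pairs cannot be told apart, nor can those of Lims2, a gene of the newly formed list, and Gpr17, which lie opposite each other.

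The name of the class did not hold for every member. Summed over the 20 newly formed genes, 78 members held 63.6 to 419 UMIs per 10000 (median 222) and 12 members held 0 to 26.8 (median 12.9), with no member in between. The dividing value of 50 per 10000 was chosen after these values were seen. Precursor-rule nuclei had a median of 22.7 and oligodendrocyte-rule nuclei of 12.6, and 97.9% and 99.5% of them lay below 50.

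The 12 members with a low value resembled oligodendrocyte-rule nuclei in the other lists too. Their median over the 19 oligodendrocyte genes was 223 UMIs per 10000, where oligodendrocyte-rule nuclei had 222 and the other 78 members 78.2. Their median over the 14 precursor genes was 10.0, against 6.71 in oligodendrocyte-rule nuclei and 199 in the 78. Of the 12, 12 met the oligodendrocyte rule, 10 lacked Bmp4 and 9 met the selection rule with 2 UMIs, and their median depth was 2218 UMIs against 4427.5. Summed, they held 0 UMIs of Tnr and of Neu4, and 68.9 CPM of Fyn, where the 78 held 10717, 457 and 4807 CPM. The 12 gave 34 UMIs of Mog against 30 in the 78, 27 of Mobp against 10, 8 of Mal against 5 and 121 of Prr5l against 6. Without them, members were at 80.6 CPM of Mog, 26.9 of Mobp, 13.4 of Mal and 16.1 of Prr5l, further below oligodendrocyte-rule nuclei than all 90 were. Mag (199 CPM), Mbp (2515) and St18 (2805) were closer to their levels in all 90.

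These 12 were not spread evenly over libraries. Long-term restriction replicate 3 had 3 of 3 members of this kind, acute restriction replicate 2 had 4 of 7, long-term replicates 2 and 4 had 2 of 7 and 1 of 6, young replicate 3 had 1 of 12 and old ad libitum replicate 4 had 1 of 13. In all, 10 of 35 members of restricted mice and 2 of 55 of mice fed ad libitum were of this kind. No test of this split was made, since the dividing value was set on these nuclei. Numbers of members, gene lists by contrast and the genes Bcas1, Fyn, Frmd4a, Vcan and Mbp are therefore also given without them.

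**Figure D2:**
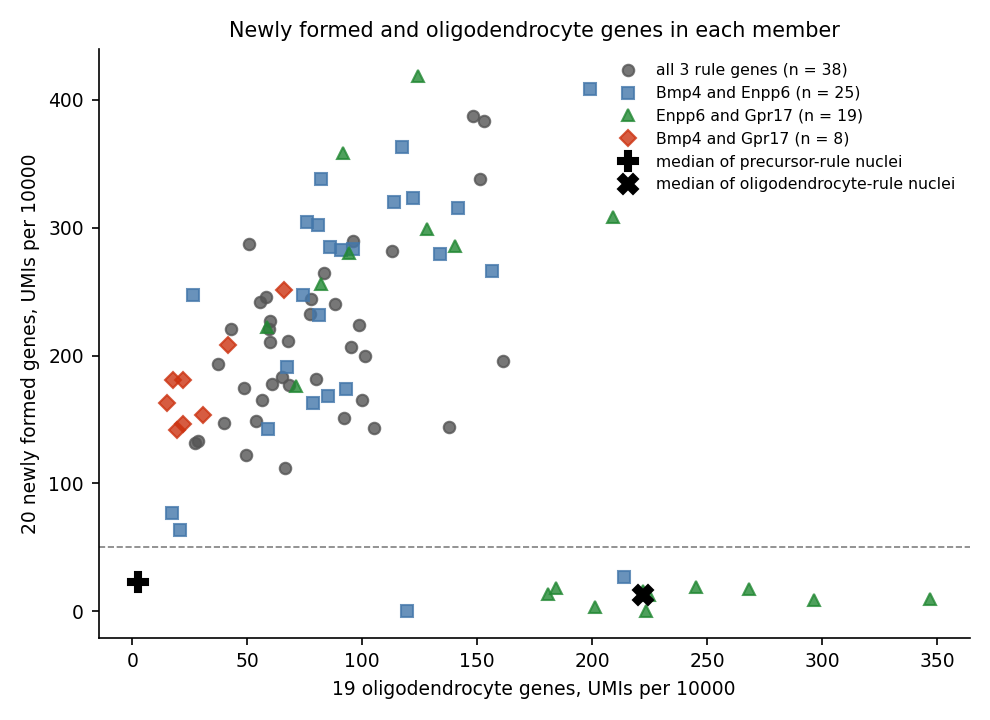
Each point is 1 of the 90 members, placed by its UMIs per 10000 over 19 oligodendrocyte genes (x axis) and over 20 newly formed genes (y axis), with its shape giving the rule genes detected; black symbols are the medians of the 2 classes and the dashed line marks 50. The 12 members below the line sit around the oligodendrocyte-rule median of 222 on the x axis, and 10 of them have Enpp6 and Gpr17 without Bmp4.

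Among the 78, the rule genes detected went with the myelin genes. The 8 members with Bmp4 and Gpr17 but no Enpp6 had a median of 22.0 UMIs per 10000 over the oligodendrocyte genes and 235 over the precursor genes. The 38 with all 3 genes had medians of 67.9 and 202, the 23 with Bmp4 and Enpp6 84.9 and 197, and the 9 with Enpp6 and Gpr17 94.1 and 193. Members without an Enpp6 UMI thus had the lowest oligodendrocyte and the highest precursor value of the 4 sets, although the ranges of the sets overlapped. Over the 78 nuclei, Spearman's rho was 0.62 between the newly formed and the oligodendrocyte list and -0.23 between the precursor and the oligodendrocyte list. These nuclei share libraries and differ in depth, and the lists share a total.

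Single genes were at different levels in these sets, which pool nuclei of several libraries, and no test was made. Frmd4a was at 305 CPM in the 8 members without Enpp6, 14287 in those with all 3 genes, 21886 in those with Bmp4 and Enpp6 and 19832 in those with Enpp6 and Gpr17. Pik3r3 was at 419, 1661, 3355 and 5679 CPM in the same order, and Mbp at 305, 2269.8, 2973 and 3632. Lhfpl3 went the other way, at 3011, 1973, 887 and 902 CPM. Tnr (10290.4, 10708, 10613 and 11269.6 CPM), Fyn (5145, 5041, 4494 and 4446) and Bcas1 (5031, 5737, 6119 and 5481) were at like levels in all 4 sets.

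The number of members was compared between groups to ask whether age or diet went with the size of this class. As a share of retained nuclei, members made up 0.0969%, 0.101% and 0.151% in young mice (replicates 1, 2 and 3) and 0.0569%, 0.0994% and 0.196% in old mice fed ad libitum (replicates 1, 2 and 4). Acutely restricted mice had 0.0333%, 0.0974% and 0.0405%, and mice restricted for longer had 0.0392%, 0.0867%, 0.0684% and 0.0760%. Old mice fed ad libitum lay on both sides of the young, and the 7 restricted libraries lay between 0.0333% and 0.0974%. Exact (Clopper-Pearson) 95% intervals, which cover counting error only, ran from 0.00689% to 0.205% in old ad libitum replicate 1 (2 members) and from 0.104% to 0.335% in replicate 4 (13 members).

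None of these shares differed beyond the spread between libraries. The difference of old from young mice fed ad libitum was 0.00117 percentage points (0.118% ± 0.0713 against 0.116% ± 0.0305, SD, n = 3 each, exact permutation test, two-sided, p = 0.9). Both restrictions together differed from old ad libitum mice by -0.0544 percentage points (0.0631% ± 0.0255, SD, n = 7, exact permutation p = 0.0833, adjusted p = 0.4 over 12 tests). For the long-term and the acute restriction alone the adjusted exact permutation p was 0.48 in both. The smallest p that this exact permutation test can give is 0.0286 for the long-term (4 libraries against 3) and 0.1 for the acute restriction (3 against 3). edgeR's quasi-likelihood test on numbers of nuclei gave a log2 difference of -0.97 for both restrictions together (p = 0.046, adjusted p = 0.177 over 6 contrasts).

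Without the 12 members of low newly formed content, the difference of both restrictions from old ad libitum mice was -0.0724 points (exact permutation p = 0.025, adjusted p = 0.15). The dividing value was set after these nuclei were seen, and it took out 10 members of restricted mice and 1 of old ad libitum mice. The larger difference thus follows in part from the split, and its p-value is no test of diet. Members then numbered 8, 10 and 11 in young, 2, 10 and 12 in old ad libitum, 3, 3 and 5 in acute restriction and 4, 5, 0 and 5 in long-term restriction libraries.

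Relative to precursors, members were fewer in old than in young mice. Members per 100 members plus precursor-rule nuclei were 4.73, 5.03 and 7.23 in young libraries. They were 1.33, 2.74 and 3.76 in old mice fed ad libitum, 1.29, 3.68 and 1.41 in the acutely restricted and 1.64, 3.32, 1.76 and 3.24 in those restricted for longer. All 10 old libraries lay below all 3 young ones. The mean was 2.42 ± 1.03 in old (n = 10) and 5.66 ± 1.36 in young mice (n = 3), a difference of -3.24 (exact permutation test, two-sided, p = 0.0035, the smallest this design can give, adjusted p = 0.042 over 12 tests).

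Within old mice the ratio did not differ between diets beyond the spread. Both restrictions together differed from ad libitum by -0.274 (2.34 ± 1.03, SD, n = 7, against 2.61 ± 1.22, n = 3, exact permutation p = 0.783). Without the 12 members of low newly formed content the difference was -0.937 (exact permutation p = 0.175), a value that follows in part from the split, as above. For mice fed ad libitum alone, the old differed from the young by -3.05, with 3 of 3 old libraries below all young ones (exact permutation p = 0.1, the smallest that 3 against 3 can give, adjusted p = 0.4). The libraries numbered 1 gave 4.73 in young against 1.33, 1.29 and 1.64 in old mice, and the others 5.03 and 7.23 against 1.41 to 3.76, so that the young were highest within each.

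**Figure D3:**
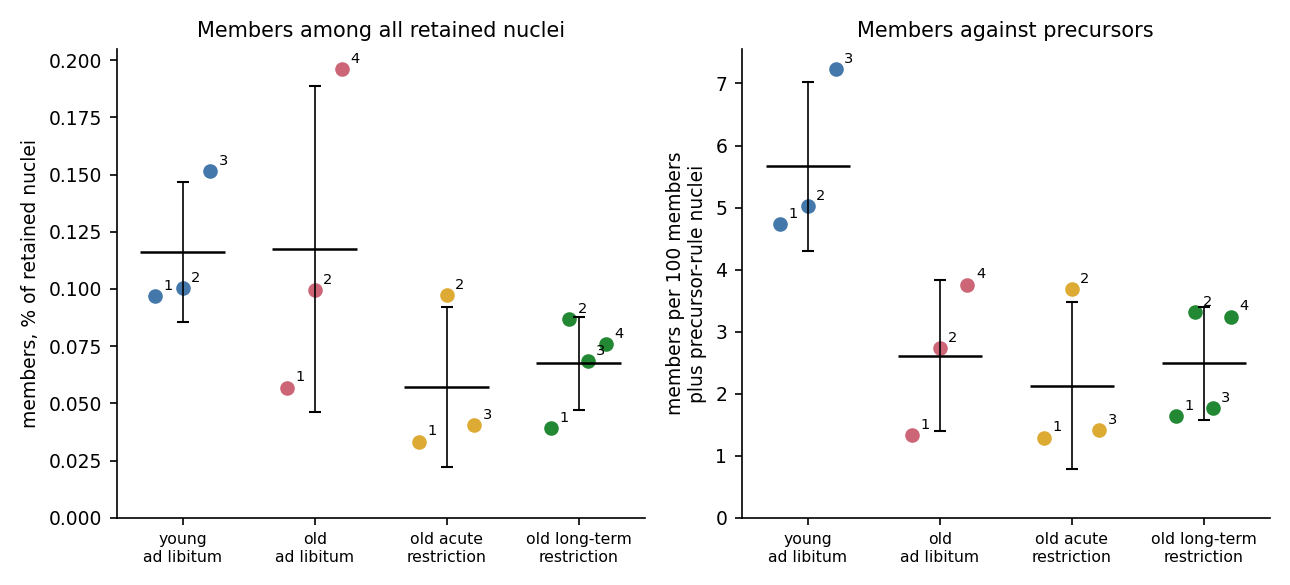
Members as a percentage of retained nuclei (left) and per 100 members plus precursor-rule nuclei (right), 1 point per library with its replicate number; horizontal lines are group means and bars the SD (n = 3, 3, 3 and 4). On the right the 3 young libraries (4.73 to 7.23) lie above the 10 old ones (1.29 to 3.76), while on the left the groups overlap.

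The denominator of this ratio moved as well. Precursor-rule nuclei made up 1.95%, 1.90% and 1.94% of retained nuclei in young mice and 4.21%, 3.53% and 5.02% in old mice fed ad libitum. In acutely restricted mice they made up 2.54%, 2.55% and 2.84%, and in mice restricted for longer 2.35%, 2.53%, 3.81% and 2.27%. All 10 old libraries lay above all 3 young ones with Pdgfra required. Without that requirement young libraries had 258 of 8257, 305 of 9950 and 231 of 7922 nuclei. Acute replicate 2 (219 of 7190) and long-term replicate 4 (246 of 7894) then overlapped the young. In edgeR's quasi-likelihood test on numbers of nuclei, old against young mice fed ad libitum gave a log2 difference of 1.14 (adjusted p = 0.00687 over 6 contrasts). All old against young mice gave 0.70 (edgeR, adjusted p = 0.0196), and both restrictions together against old ad libitum mice gave -0.66 (edgeR, adjusted p = 0.0196). In old mice fed ad libitum the ratio was thus lower with members at 0.118% of nuclei against 0.116% in the young, and more precursors.

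The difference of the ratio between all old mice, most of them restricted, and young mice fed ad libitum missed the threshold under several alternatives that kept its direction. It was -2.42 with the rule set to 16 UMIs per 10000 and -1.94 with all 3 rule genes required (exact permutation, adjusted p = 0.0839 in both). With Pdgfra not required of precursors it was -1.92 (exact permutation, adjusted p = 0.126). In these 3 alternatives old and young libraries overlapped: old ad libitum replicate 4 was at 2.35, 2.35 and 3.07. The lowest young library was at 2.07, 1.91 and 3.01 in the same order. Without the libraries numbered 1 the difference was -3.28 (exact permutation, adjusted p = 0.286). With nuclei thinned to 2000 UMIs it was -5.05 (exact permutation, adjusted p = 0.042), and without the 12 members of low newly formed content -3.61 (exact permutation, adjusted p = 0.042). Of those 12, 1 came from a young library, so the second value follows in part from the split. Leaving out any 1 of the 13 libraries gave -3.71 to -2.46. The exact permutation adjusted p was 0.0545 for each old library and 0.182 for each young one. In these runs, and without the libraries numbered 1, the unadjusted p was the smallest that so few libraries can give. The lost calls there follow from the number of libraries and are no check on the difference.

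Gene expression within members was tested on UMIs summed per library, in the 9 libraries with at least 5 members (young 1, 2 and 3, old ad libitum 2 and 4, acute restriction 2 and 3, long-term restriction 2 and 4). Of 652 genes tested with edgeR's quasi-likelihood test, 0 passed an adjusted p of 0.05 (0% called) in each of the 6 contrasts: old against young ad libitum, long-term and acute restriction against old ad libitum, long-term against acute, both restrictions against old ad libitum, and all old against young. At an unadjusted p below 0.05 there were 25, 25, 40, 34, 38 and 41 genes in that order, where 32.6 would arise by chance. DESeq2 called 1 gene for acute restriction and 0 in the other 5 contrasts. The summed members of these libraries held 23342 to 73840.0 UMIs, which limits the differences that could be detected.

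No newly formed gene passed the test in members in any of the 6 contrasts. With the median UMIs per member as a covariate, 1 gene of the list, Pik3r3, was called for ageing (log2 difference -2.09, edgeR, adjusted p = 0.0238, against -0.98 and 0.997 without the covariate). Summed over the list, members held 28184, 16833 and 22452 CPM in young libraries and 24257, 22096 and 21939 in old ad libitum ones. Acutely restricted libraries had 17954, 11396 and 28329, and the long-term ones 18508, 20641, 1527 and 29677. The 2 lowest values came from the libraries with the largest share of low-content members, acute replicate 2 and long-term replicate 3. Of the 20 genes, 10 passed the filter for testing, and their median log2 change for ageing was -0.10, with 4 higher and 6 lower, against 0.01 over all 652 genes. For both restrictions against old ad libitum it was -0.13, with 3 higher and 7 lower, against -0.06. For acute restriction alone it was -0.35, with 4 higher and 6 lower, against -0.02 over all genes, and in 4 of the 10 the 2 acute and 2 old ad libitum libraries tested did not overlap (32.2% of all 652 genes did not). Of these 10, Neu4, the 1 with an unadjusted p below 0.05 and named here for it after its values were seen, had a log2 difference of -1.48 ± 0.59 (SE, edgeR, adjusted p = 0.789).

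Without the 12 members of low newly formed content, the same fit was made on the same 9 libraries and 652 genes. The newly formed list then had a median log2 change of -0.001 for acute restriction (5 higher, 5 lower) and 0.09 for both restrictions (6 higher, 4 lower), against 0.07 and 0.01 over all genes. Since the 12 were set apart by a low sum over this same list, the shift follows in part from the split and is no check on the values above. Summed over the list, acute replicate 2 held 19812 CPM in its 3 remaining members, and long-term replicate 3 had no member left.

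Bcas1, the most abundant gene of the list in members, was at 5262, 4275 and 6481 CPM in young members, 8001, 6936 and 5146 in old ad libitum, 2372, 3170.2 and 4861 in acute and 5661, 6592, 939 and 6610.1 in long-term restriction members. All 3 acute libraries were below all 3 old ad libitum ones, with a log2 difference of -0.55 ± 0.37 in the libraries tested (SE, edgeR, adjusted p = 0.853), and the lowest value was that of long-term replicate 3. Without the members of low newly formed content acute replicate 2 was at 5516 CPM and old ad libitum replicate 4 at 5299.7, so that the groups overlapped. Bcas1 is in the list by which these members were set apart, so this rise follows in part from the split. Fyn was at 5339.8, 4108 and 5185 CPM in young, 4632, 4499 and 4577 in old ad libitum, 2664, 3299 and 4024 in acute and 4573, 5644, 117 and 5418 in long-term restriction members. Without the same members acute replicate 2 was at 5982 CPM of Fyn, above the old ad libitum values. Fyn is in the same list, so the same limit holds for it.

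**Figure D4:**
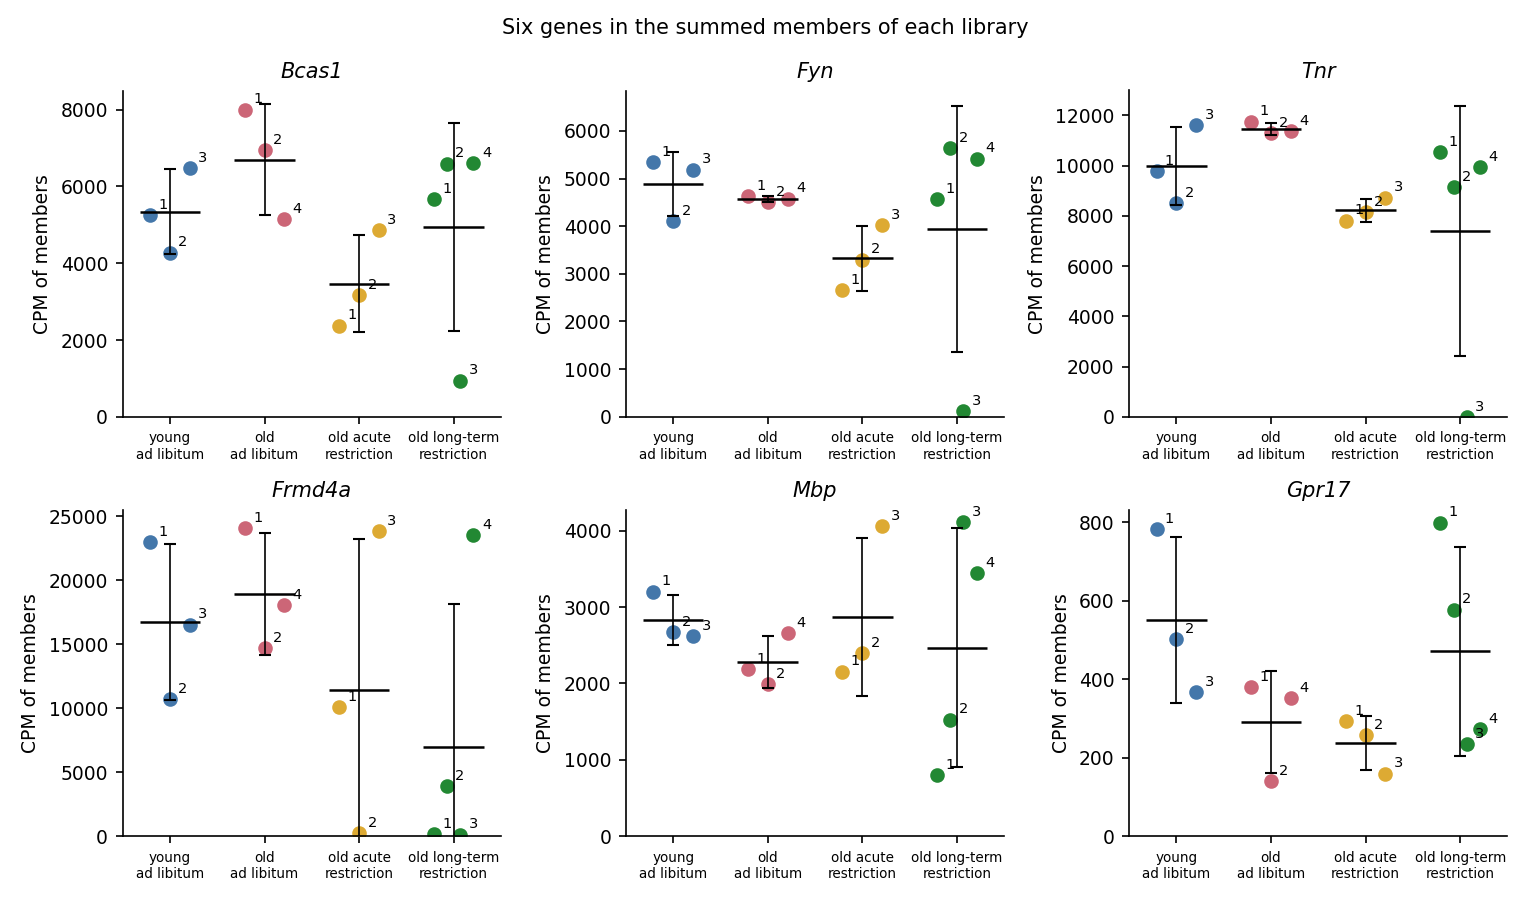
CPM of members, summed per library, for 6 genes in the 4 groups (1 point per library with its replicate number, line and bar for mean and SD, n = 3, 3, 3 and 4). Long-term restriction replicate 3, with 3 members, is lowest for Bcas1 (939), Fyn (117) and Tnr (0), and Frmd4a runs from 117 to 24088 across libraries.

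Frmd4a varied widely. It was at 22948, 10721 and 16533 CPM in young members, 24088, 14668 and 18053 in old ad libitum, 10108, 257 and 23827 in acute and 145, 3914, 117 and 23544 in long-term restriction members. Every group of restricted mice held libraries with almost none and libraries at the level of fed mice. Long-term replicate 1, at 145 CPM from 4 members, had 0 members of low newly formed content, and acute replicate 2 without its 4 was at 388 CPM.

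The rule genes themselves were also compared, as a description, since the rule sets a lower bound to their sum. Gpr17 was at 781, 501 and 367 CPM in young members, 379, 141 and 352 in old ad libitum, 292, 257 and 159 in acute and 798, 577, 235 and 273 in long-term restriction members. Bmp4 was at 703, 367 and 709 CPM in young, 168, 469 and 528 in old ad libitum, 146, 214 and 319 in acute and 218, 453, 117 and 375 in long-term restriction members. The old libraries of both genes overlapped the young ones.

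Of the 14 precursor genes 8 were tested for both restrictions against old ad libitum, of which 2 were higher and 6 lower, with a median log2 change of -0.89 against -0.06 over all genes, and 4 of the 8 did not overlap between the 4 restricted and 2 old ad libitum libraries tested (12.9% of all 652 genes did not). The 2 with an unadjusted p below 0.05, named after their values were seen, were Vcan and Lhfpl3. Vcan was at 860, 701 and 1076 CPM in young members, 1137, 1195 and 1124 in old ad libitum, 584, 214 and 438 in acute and 1234, 453, 0 and 886 in long-term restriction members. Long-term replicate 1, at 1234 CPM and outside the test with 4 members, lay above the 3 old ad libitum libraries, so that over all libraries the groups overlapped. Its log2 difference for both restrictions together was -1.30 ± 0.40 (SE, edgeR, adjusted p = 0.67), and it was -0.14 ± 0.12 in precursor-rule and -0.92 ± 0.36 in oligodendrocyte-rule nuclei (SE, edgeR, not called in either). Without the members of low newly formed content it was -1.03 ± 0.37 in the same libraries and genes (SE, edgeR, adjusted p = 0.999), and the list's median was -0.54, with 2 higher and 6 lower. Acute replicate 2, which had 4 such members of 7, was then at 388 CPM of Vcan.

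The same 8 precursor genes were also read for each restriction alone, against the same old ad libitum libraries. For acute restriction 0 were higher and 8 lower, with a median log2 change of -1.19 against -0.02 over all genes, and 6 of the 8 did not overlap in the 2 against 2 libraries (32.2% of all genes). For long-term restriction 2 were higher and 6 lower, with a median of -0.29 against -0.06. Without the members of low newly formed content the medians were -0.75 for acute (3 higher, 5 lower) and -0.09 for long-term restriction (2 higher, 6 lower). Over all libraries with at least 3 remaining members, which adds acute replicate 1 and long-term replicate 1, the median was -0.75 for acute restriction (1 higher, 7 lower). For long-term restriction it was 0.02 (5 higher, 3 lower), so that the long-term median turned direction. Long-term against acute restriction gave a median of 0.76 with the members of low newly formed content and 0.58 without them in the same libraries and genes. In all these fits 0 genes of the list passed the test.

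No oligodendrocyte gene passed the test for either restriction or both together against old ad libitum. Of 19 genes 6 were tested, of which 6 were higher for both together, with a median log2 change of 0.50, and in all 6 the groups overlapped. Prr5l, named after its values were seen, had the lowest unadjusted p of them (log2 difference 3.37 ± 1.28, SE, edgeR, adjusted p = 0.814). For acute restriction alone its log2 difference was 4.11 ± 1.36 (SE, edgeR, adjusted p = 0.602), and it was called with no filter on low counts (edgeR, adjusted p = 0.0435). Without acute restriction replicate 3, which left acute replicate 2 as the only acute library, its log2 difference was 4.96. Mbp was at 3204, 2672 and 2617 CPM in young members, 2189.8, 1992 and 2654 in old ad libitum, 2153, 2399 and 4064 in acute and 798, 1524, 4109.9 and 3441 in long-term restriction members. Its groups overlapped in every comparison. The restricted libraries of this contrast held 7 members of low newly formed content, 4 of them in acute replicate 2, and the old ad libitum ones held 1. Without these members, in the same libraries and genes, the list's median was 0.24, with 6 of 6 higher, against 0.01 over all genes. Over all libraries with at least 3 remaining members it was -0.03, with 1 higher and 3 lower of 4 tested, so that the direction turned. In the fit on the same libraries and genes, Mbp had a log2 difference of 0.19 ± 0.51 (SE, edgeR, adjusted p = 0.999). Prr5l, which had few UMIs left, had a log2 difference of 0.25 (edgeR, adjusted p = 0.999). Over all libraries with at least 3 remaining members, Mbp had -0.04 ± 0.51 (SE, edgeR, adjusted p = 0.996), and Prr5l was not among the genes tested.

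Of the 16 differentiation transcription factors 6 were tested, with 3 higher and 3 lower for ageing. Sox10 was at 599, 468 and 465 CPM in young members and 589.6, 234 and 609 in old ad libitum ones, a log2 difference of -0.34. Of the genes listed under Wnt and Notch signalling 3 (Apc, Tcf7l2 and Tcf4) and of the growth factor receptors 2 (Fgfr2 and Erbb4) were tested. In the sterol, glucocorticoid, clock, cell cycle and bone morphogenetic protein lists 0 genes had enough UMIs to be tested.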

How the data were processed

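Single-nucleus RNA libraries of 13 hippocampus samples, made with 10x Genomics chemistry after nuclei were sorted on Hoechst stain, were analysed from the deposited UMI counts per gene and barcode (32285 genes). The authors used Cell Ranger 4.0.0 and build mm10, per the submitters' processing notes. The counting of introns, the use of strand, any correction for free RNA and any removal of doublets are not given in the sources used here. The members and all gene lists were chosen with earlier results of these data known.

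The filter on barcodes (500 or more genes, mitochondrial UMIs of 5% or less) kept 105427 of 105759. Members, precursors, oligodendrocytes, neurons (at least 2 of Rbfox3, Snap25 and Syt1, 20 or more UMIs per 10000), astrocytes and microglia (at least 2 marker genes, 10 or more per 10000) were set by rules on raw counts. No clustering and no doublet caller were used. Nuclei of mixed type were instead left out in an alternative by the same rules.

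Shares were compared over libraries by exact two-sided permutation tests, adjusted by Benjamini-Hochberg over 12 tests (2 measures, 6 contrasts). Gene counts were summed over members per library, where at least 5 were present, and tested with edgeR 4.0.16 (TMM factors, filterByExpr, robust quasi-likelihood fits over all groups), with DESeq2 1.42.0 as an alternative. P-values were adjusted over the 652 genes tested. Each SE of a log2 difference was derived from the edgeR output, as the absolute difference divided by the square root of the quasi-likelihood F. It is approximate and unreliable for genes with few UMIs. A step on simulated counts tested the code. Scripts ran in Python 3.11.15 and R 4.3.3. Gene positions and overlaps were read from the GENCODE annotation of GRCm38, the assembly that mm10 names.

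Named genes were the 3 rule genes, up to 8 genes of each list in list order, called genes whose groups did not overlap (0 here), and the 20 genes of highest ratio of members to both neighbouring classes. Other genes are marked as named after their values were seen. The values of 1 oligodendrocyte gene are not reported here. Alternatives changed the rule's threshold, genes and depth, the barcode filter, the classes, the libraries used, the normalization, the filter on low counts and the tool. Single libraries were left out in turn.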

Additional observations from a re-analysis of the deposited data

How the results depend on the processing

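Depth, few members per library and rules on few UMIs limit all values. Over 6 contrasts and their alternatives, the share of retained nuclei kept its direction and side of the threshold 107 times and turned direction 8 times, and members per 100 members plus precursors kept both 87 times, lost the call 18 times and turned direction 10 times. Where a call was lost with a single library left out, the unadjusted exact permutation p was the smallest that the design can give. No call was made in the share of retained nuclei under any alternative. Its ageing difference turned to -0.000755 with at least 1000 genes, -0.0228 with nuclei thinned to 2000 UMIs and -0.0205 with a replicate block, and ran from -0.0381 to 0.0315 with single libraries left out. Long-term minus acute restriction turned to -0.000344 with at least 1000 genes and ran from -0.00137 to 0.0307 with single libraries left out.

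For members per 100 members plus precursors, long-term restriction minus old ad libitum turned to 0.215 when thinned and to 0.123 with a replicate block, acute restriction to 0.452 and both restrictions to 0.127 with the block. With single libraries left out these 3 differences ran from -0.757 to 0.455, -1.26 to 0.0921 and -0.913 to 0.299, and long-term minus acute restriction from -0.0551 to 1.14. The difference of old from young mice was -3.58 with the replicate block (exact sign-flip permutation p = 0.25, the smallest that 3 pairs can give, adjusted p = 0.75), -2.42 at 16 UMIs per 10000, -1.94 with all 3 genes, -1.92 without Pdgfra in the precursor rule, -3.28 without the libraries numbered 1, and -3.71 to -2.46 with single libraries left out. The cause of these changes was not tested, except that fewer libraries raise the smallest p that the design can give.

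Genes called in member sums numbered 0 with edgeR. With no filter on low counts (13186 genes) they were 1, 4, 4, 2, 4 and 2 in the order of contrasts used above. With the median UMIs per member as a covariate they were 2, 2, 5, 0, 2 and 2, and with at least 10 members per library 3 for ageing. DESeq2 called 1 for acute restriction, and with single libraries left out this contrast gave 0 to 9 calls (9 without acute restriction replicate 3). Leaving out acute replicate 3 left acute replicate 2 as the only acute library, so these 9 calls cannot separate restriction from that library and are no test of it. Both groups of this contrast had 2 libraries in the fit, so leaving out any of them left 1 in its group. The cause of these changes in the number of calls was not tested. The replicate block gave 0 calls in all 6 contrasts. Deviations of same-numbered libraries from their group means had correlations from -0.292 to 0.417 over 8 pairs, not all above 0.1. In a group with 2 libraries the 2 deviations mirror each other, so these values are not independent. The check cannot decide whether a number marks a shared preparation, and the samples were not taken as paired. Number 1 had no pair in this check, since 1 library of that number had at least 5 members. The alternatives that asked for a newly formed list of at least 50 per 10000 were added after the data were seen, and gave 0 calls in every contrast they could fit. For both restrictions, the median log2 change of the oligodendrocyte genes was 0.50 with all members, 0.24 without those of low content in the same libraries and genes (6 genes), and -0.03 over all libraries with at least 3 remaining members (4 genes). For the precursor genes (8 in each fit) it was -0.89, -0.54 and -0.28. The cause was not tested.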
